A study of Mus musculus with 6 samples.

Results

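The proteasome genes of the mouse testis were measured as the 51 rows of the deposited gene table whose symbol begins with Psma, Psmb, Psmc, Psmd, Psme, Psmf or Psmg followed by a digit, out of 34144 gene symbols in all. Of these symbols 49 name subunits, assembly chaperones, activators or the inhibitor of the proteasome. The other 2, Psmc3ip and Psme3ip1, matched by symbol alone and name a partner of meiotic recombinases and a protein that binds a proteasome activator. The samples were decapsulated testes of 6 C57Bl/6J mice aged 3 months, 3 wild type and 3 labelled Nsun7-/-, with 1 library of ribosomal RNA-depleted total RNA per mouse. Nsun7 is a member of the NSUN group of putative RNA methyltransferases, and the series title presents it as an RNA-binding protein acting on transcripts of elongated spermatids. The labels do not describe the allele, and they speak of seminiferous tubes taken from the testes without stating whether interstitial tissue was removed, which limits how markers of interstitial cells can be read. The comparison asks here whether the transcripts of the proteasome, the general ones and those that germ cells specialise in, differ between Nsun7-/- and wild-type testes.

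The proteasome is the barrel-shaped protease that degrades proteins tagged with ubiquitin. Rings of alpha subunits (Psma genes) form its gated entrance, rings of beta subunits (Psmb genes) carry the cutting sites, and a regulatory cap of ATPases (Psmc genes) and non-ATPases (Psmd genes) binds, unfolds and feeds in the substrate. Germ cells use variants of this machine: Psma8 is a paralog of the alpha subunit Psma7 made in spermatocytes and spermatids and needed for meiosis in male mice, and Psme4 (PA200) is an activator described in the degradation of acetylated histones while spermatids replace histones.

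No proteasome gene passed the test between the genotypes. Of the 51 symbols 49 had enough counts to test (Psmb11 and Psme2b did not), and 0 of the 49 were called by edgeR's quasi-likelihood test at an adjusted p under 0.05, against 0.567% of the 21002 genes tested (119 genes, 49 or 0.233% higher and 70 or 0.333% lower in the knockout). At an unadjusted p under 0.05 there was 1 of 49, Psmg3, against 8.39% of all genes, and DESeq2 also called 0. For 42 of the 49 the 95% interval of the fold change lay within a 1.5-fold change in either direction, as it did for 54.1% of all genes tested. The median log2 fold change was -0.05 over the 49 and 0.01 over all genes tested, and single values ran from -0.44 (Psmb8) to 0.23 (Psma3). Levels in CPM (counts scaled to a common library total, with TMM factors) of the genotypes did not overlap for 3 members, Psmb5 and Psmg3 lower and Psmd10 higher in the knockout, against 14.3% of all genes tested (7.38% higher and 6.95% lower in the knockout). Because these are bulk RNA samples, fewer cells of a type and less RNA per cell cannot be told apart.

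**Figure D1:**
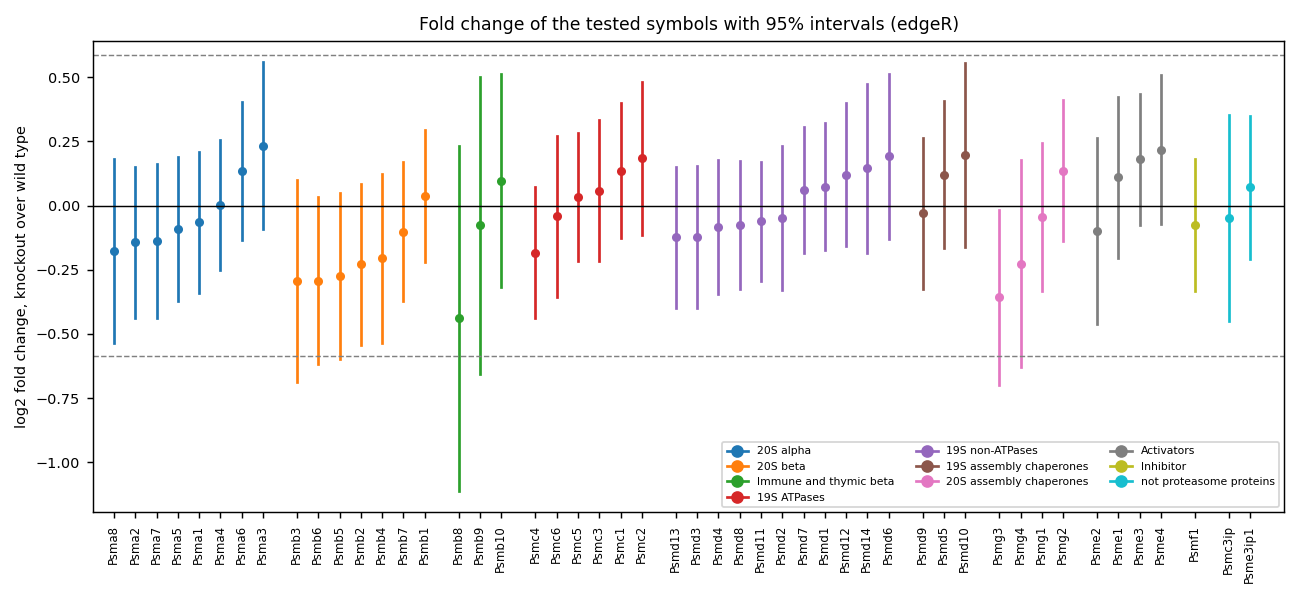
Points give the log2 fold change of each tested symbol, knockout over wild type, and bars its 95% interval from edgeR, with 3 mice per genotype; dashed lines mark a 1.5-fold change either way. The interval reaches beyond a dashed line for Psmb3, Psmb5, Psmb6, Psmb8, Psmb9, Psmg3 and Psmg4, and only that of Psmg3 does not include 0.

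The libraries held between 23480448 and 28558865 estimated counts. Nsun7 itself had 36.6, 35.7 and 37.2 CPM in wild-type mice 1, 2 and 3 and 18.0, 17.8 and 25.2 CPM in knockout mice 1, 2 and 3. The genotypes did not overlap, and the log2 fold change was -0.84 (SE 0.15, edgeR adjusted p = 0.016). Knockout mouse 3 and wild-type mouse 1 stood at the opposite ends of the first principal component of log2 CPM (35.5% of the variance). Scores were -38.3, -21.3 and -6.39 in wild-type mice 1 to 3 and 0.981, 15.9 and 49.2 in knockout mice 1 to 3. The component thus separated the genotypes and also rose with the mouse number within each, and these cannot be told apart. Over all tested genes, the log2 deviation of knockout mouse 3 from the other 5 libraries fell with the GC content of the transcripts (Spearman's rho -0.55 over 19590 genes, which share these libraries, as a description): a fitted trend in that library stood at 0.23 at a GC content of 40% and at -0.25 at 56%, against -0.10 to 0.10 in the other 5 libraries. Wild-type mouse 1 had the shortest estimated mean fragment, 154 bases against 168 to 178.5 bases in the others. The log2 fold changes of the members given by library are therefore also given without knockout mouse 3. Germ cell markers were abundant in all libraries, with summed levels of 7 pachytene spermatocyte markers of 4542 to 5401 CPM in wild type and 3386 to 4321 CPM in knockout, and Leydig cell markers were present too (6 markers, 1672 to 2821 and 2117 to 4786 CPM; 1 called, Hsd3b1, median log2 fold change 0.76). All 6 of the Leydig cell markers lay above 0. Of the markers of spermatogonia (6), Sertoli cells (6) and peritubular myoid cells (5) 0 were called, with medians of -0.04, -0.09 and -0.28. In these lists 3 of 6, 5 of 6 and 5 of 5 lay below 0. The summed level of the myoid markers did not overlap, at 477 to 524 CPM in wild type and 358 to 468 CPM in knockout. The part of these cells in the values was not tested. Of the members 19 overlap an annotated gene on the other strand and 10 one on the same strand, and the counting is not stated to use strand.

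Promoters of 3 members are shown because each holds the core of the antioxidant response element and because knockout mouse 3, described further on, deviated strongly in these genes: Psmb5 and Psmb6 lay below the other libraries and Psme4 above them. They were chosen after their values were seen, and Psmb3, which deviated further down, is not shown because its window holds no match. The RefSeq promoter table (GRCm38.p6) matched 43 of the 51 symbols, with 250 bases before and 50 after the annotated start, and 100 bases before to 20 after it are printed, 5′ to 3′ on the gene's strand. The windows lie at chr14:54617976-54618095 on the minus strand (Psmb5), chr11:70525257-70525376 on the plus strand (Psmb6) and chr11:30771675-30771794 on the plus strand (Psme4). Capitals mark matches to TGACNNNGC, the core of the antioxidant response element, which the transcription factor Nfe2l1 binds when it raises proteasome gene transcription.
Psmb5: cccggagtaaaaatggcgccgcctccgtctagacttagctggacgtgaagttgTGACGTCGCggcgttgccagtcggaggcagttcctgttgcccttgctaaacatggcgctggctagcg
Psmb6: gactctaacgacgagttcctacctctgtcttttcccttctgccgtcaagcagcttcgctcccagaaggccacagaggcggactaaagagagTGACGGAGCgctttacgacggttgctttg
Psme4: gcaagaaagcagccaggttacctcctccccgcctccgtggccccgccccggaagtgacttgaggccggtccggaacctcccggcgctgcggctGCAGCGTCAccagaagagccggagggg

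The match begins 47 bases before the annotated start in Psmb5, at -9 in Psmb6 and, on the other strand, at -7 in Psme4. Read on both strands of the full 300-base windows, TGACNNNGC was present in 6 of the 43 matched members (Psmb5, Psmb6, Psmc6, Psmd12, Psmd9 and Psme4), or 14.0%, and in 14.0% of the 27025 genes in the table. The cAMP response element TGACGTCA, a letter string that the spermatid regulator CREM binds, was in 0 of 43 windows and in 2.03% of all genes. The interferon-stimulated response element, searched as a pair of TTTC repeats 2 bases apart, was in 5 (11.6%; Psmb3, Psmd4, Psmd9, Psme1 and Psmg4) against 3.99%, and CCAAT was in 16 (37.2%) against 41.1%. The TGACNNNGC and TGACGTCA strings share their first letters and can overlap. A match describes the letters only, and the promoters that hold TGACNNNGC include genes on both sides of 0 in the fold change, Psmb5 and Psmb6 below and Psme4 above.

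Levels were compared between genes in TPM, which is scaled for transcript length, and the wild-type mean of 3 mice is given. Within the alpha ring the levels ran from 21.4 ± 2.47 TPM (SD, n = 3) for Psma2 to 98.9 ± 23.7 TPM for Psma6. The beta ring ran from 41.4 ± 10.1 TPM for Psmb1 to 288 ± 36.8 TPM for Psmb6. Subunits of a ring occur in equal numbers in the protein complex, and the RNA levels within the rings differed by up to 4.62-fold and 6.96-fold. In the cap the ATPases ran from 17.1 ± 2.57 TPM (Psmc6) to 260 ± 79.8 TPM (Psmc3), 15.2-fold, and the non-ATPases from 11.0 ± 1.75 TPM (Psmd14) to 305 ± 67.3 TPM (Psmd2), 27.7-fold. The inhibitor Psmf1 (PI31, which binds the core particle) stood at 304 ± 52.2 TPM, as high as Psmd2 within the spread. In the testis the specialised Psma8 (80.7 ± 27.1 TPM) lay above its general counterpart Psma7 (38.0 ± 3.55 TPM) in all 3 mice, with the reservation that reads from stretches alike in these paralogs can be split between them, while the immune subunits were low: Psmb10 at 8.68 ± 1.76 TPM, Psmb8 at 1.48 ± 0.343 TPM, Psmb9 at 1.26 ± 0.138 TPM and the thymic Psmb11 at 0.0962 TPM.

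**Figure D2:**
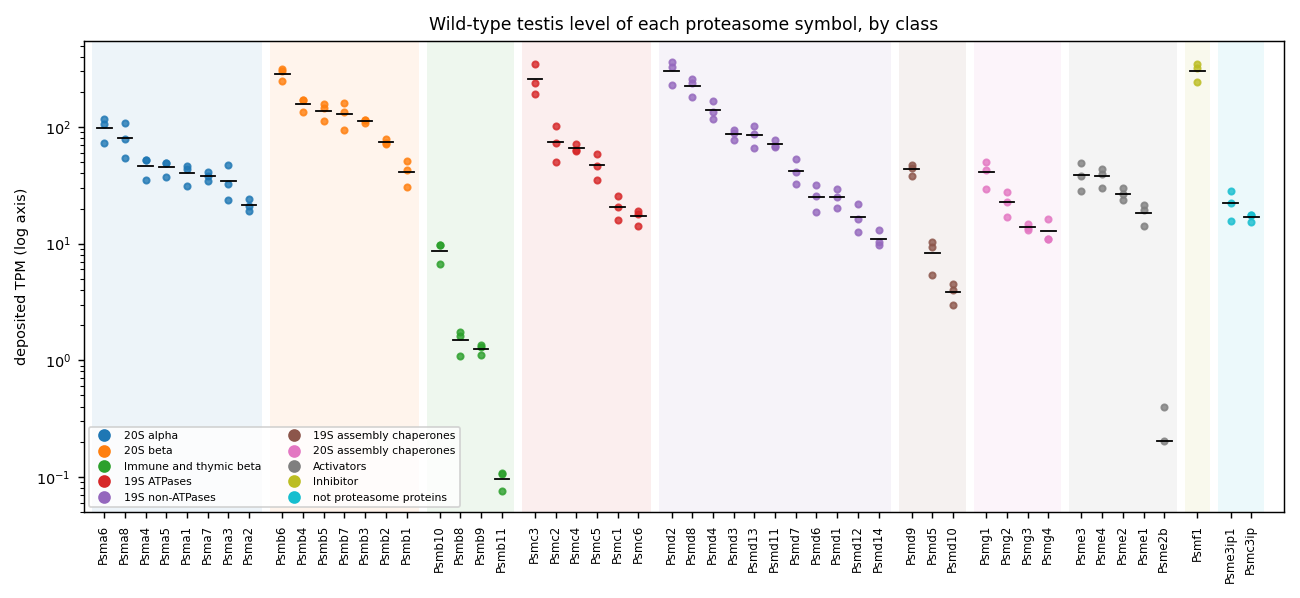
Deposited TPM (log axis) of each symbol in the 3 wild-type testes, with the mean as a line, grouped by class; the libraries in which Psme2b is listed at 0 cannot be drawn on the log axis. Psmd2, Psmf1, Psmb6 and Psmc3 lead at 305, 304, 288 and 260 TPM, and Psmb11 and Psme2b lie lowest.

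The alpha ring comprises 8 genes, of which 3 were above 0 and 5 below 0 in log2 fold change, with a median of -0.08 and a range of -0.18 to 0.23 on the count scale. Psma8, the germ cell alpha subunit, had 52.4, 76.1 and 48.0 CPM in wild-type mice 1 to 3 and 51.4, 45.7 and 59.0 CPM in knockout mice 1 to 3. Wild-type mouse 2 was the highest of the 6, and the other values of the genotypes overlapped. The log2 fold change was -0.18 with a 95% interval of -0.53 to 0.18 (edgeR adjusted p = 0.751), and leaving out wild-type mouse 2 gave 0.043 and leaving out knockout mouse 3 gave -0.28. Psma8 is made in meiotic and later germ cells, and of the markers of pachytene spermatocytes 0 of 7 were called (median log2 fold change -0.01), with 3 above 0. Their summed CPM did not overlap between the genotypes, and most of that sum was 1 gene, H1f6. It had 3997, 4010 and 3249 CPM in wild type and 2984, 3100 and 2207 CPM in knockout. The part of these cells in the result was not tested.

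Psma3, a general alpha subunit with the smallest p of the class, had 19.8, 21.6 and 26.1 CPM in wild type and 23.2, 24.9 and 31.3 CPM in knockout. Psma2, the lowest of the class in TPM, had 49.9, 50.4 and 40.4 against 48.9, 40.9 and 37.6 CPM, and Psma6, the highest, 64.5, 73.6 and 72.4 against 68.5, 74.2 and 88.2 CPM. All 3 overlapped between the genotypes, and the log2 fold changes were 0.23 for Psma3 (95% interval -0.09 to 0.56, adjusted p = 0.671), -0.14 for Psma2 (adjusted p = 0.752) and 0.13 for Psma6 (adjusted p = 0.752), all from edgeR. Without knockout mouse 3 these were 0.088 for Psma3, -0.069 for Psma2 and 0.018 for Psma6.

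In the beta ring 1 library stood below the others throughout. Of the 7 constitutive beta subunits 6 lay below 0, with a median log2 fold change of -0.23 in CPM, and 0 were called. All 7 were lowest in knockout mouse 3, where 28.7% of all tested genes and 26 of the 49 members (53.1%) were lowest. That library was the highest for 12 members (24.5%) and for 31.2% of all tested genes. Summed over the ring, the level was 724, 696 and 666 CPM in wild type and 688, 647 and 476 CPM in knockout. Without knockout mouse 3 the median log2 fold change was -0.10, and with wild-type mouse 1 left out as well it was 0.01, with 3 of 7 below 0. Leaving out wild-type mouse 1 alone gave -0.17, with 7 of 7 below 0. It was -0.27 without wild-type mouse 2, -0.30 without wild-type mouse 3, -0.35 without knockout mouse 1 and -0.26 without knockout mouse 2.

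The cutting subunits come first. Psmb5, the chymotrypsin-like subunit, had 95.3, 95.7 and 90.1 CPM in wild type and 89.0, 85.9 and 57.5 CPM in knockout, and the genotypes did not overlap. Psmb6, the caspase-like subunit, had 181, 170 and 157 CPM in wild type and 157, 154 and 104 CPM in knockout, and Psmb7, the trypsin-like subunit, 108, 120 and 127 CPM in wild type and 119, 117 and 94.8 CPM in knockout. For Psmb6 the lowest wild-type and the highest knockout level met at 157 CPM, Psmb7 overlapped, and knockout mouse 3 was the low library in all 3 genes.

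The log2 fold change was -0.27 for Psmb5 (SE 0.15, 95% interval -0.60 to 0.05, edgeR adjusted p = 0.641) and -0.29 for Psmb6 (SE 0.15, -0.62 to 0.03, adjusted p = 0.630), while Psmb7 stood at -0.10 (adjusted p = 0.809). Without knockout mouse 3 these became -0.10 for Psmb5, -0.13 for Psmb6 and -0.0086 for Psmb7. Psmb1, a non-catalytic subunit of the ring, was the exception above 0, with 55.4, 59.7 and 61.8 CPM in wild type and 67.2, 60.1 and 54.3 CPM in knockout (0.04, and 0.10 without knockout mouse 3). The other non-catalytic subunits were Psmb2 with 57.7, 44.2 and 42.5 CPM in wild type and 46.0, 41.9 and 35.3 CPM in knockout (-0.23), Psmb3 with 76.2, 62.7 and 54.9 against 64.3, 55.5 and 38.3 CPM (-0.30), and Psmb4 with 151, 143 and 133 against 145, 133 and 91.7 CPM (-0.21). All 3 overlapped between the genotypes, and without knockout mouse 3 they stood at -0.14 (Psmb2), -0.11 (Psmb3) and -0.038 (Psmb4). On the deposited TPM without recentring the median of the 7 was 0.09, because TPM of all genes moved up by 0.24 (log2 of TPM + 1) between the genotypes, and relative to that shift it was -0.15.

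**Figure D3:**
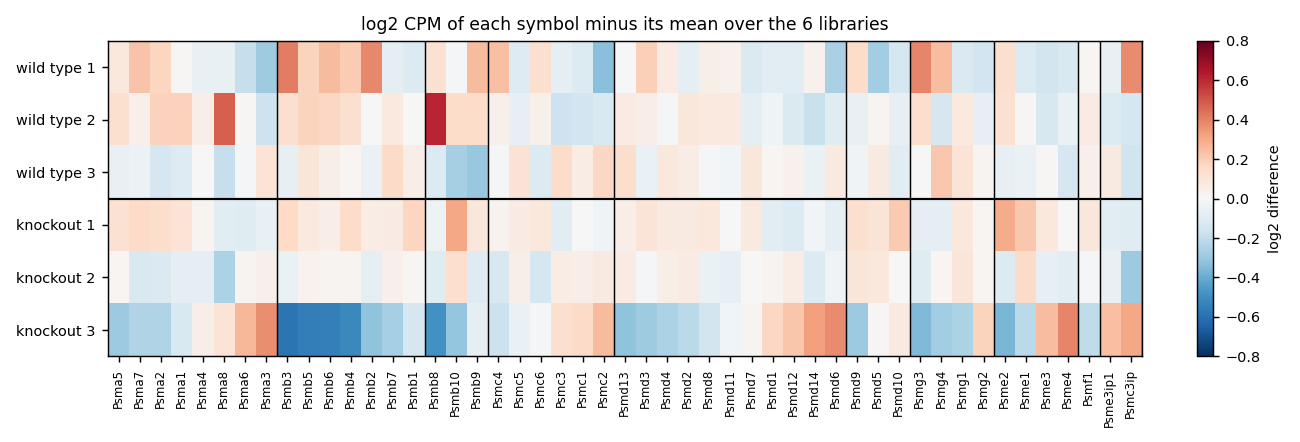
Each column is a tested symbol and each row a library (wild type above the line, knockout below it); colour gives log2 CPM minus the symbol's mean over the 6 libraries, blue lower and red higher. Knockout mouse 3 is the lowest library for all 7 constitutive beta subunits, and it is red for Psma3, Psma6, Psmd6 and Psme4 (log2 deviations from the mean of the other 5 libraries of 0.44, 0.32, 0.45 and 0.46).

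The position of knockout mouse 3 followed the GC content of the members as it did that of all genes. Across the 48 members with a GC value, rho between GC and the log2 deviation of that library was -0.67, against -0.55 over 19590 genes, a description over genes that share these libraries. Psmb5 and Psmb6, at -0.67 and -0.66, had GC contents of 56.6% and 55.6%, and Psme4, at 0.46, had 43.9%. Some members lay off the trend, such as Psma2 (39.8%) at -0.29 and Psmc3 (54.9%) at 0.15. After the trend on GC was removed in each library, a setting chosen after the values were seen, all 7 beta subunits were still lowest in knockout mouse 3. So were 21 of the 48 members (43.8%) and 19% of all genes. The median deviation was -0.38 for the beta subunits, -0.08 for the members and 0.06 for all genes. Of the alpha subunits Psma1, Psma2, Psma4, Psma5 and Psma7 were also lowest there, while Psma3 and Psma6 were highest. Transcript length had a rho of 0.38 over the members and 0.17 over all genes.

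**Figure D4:**
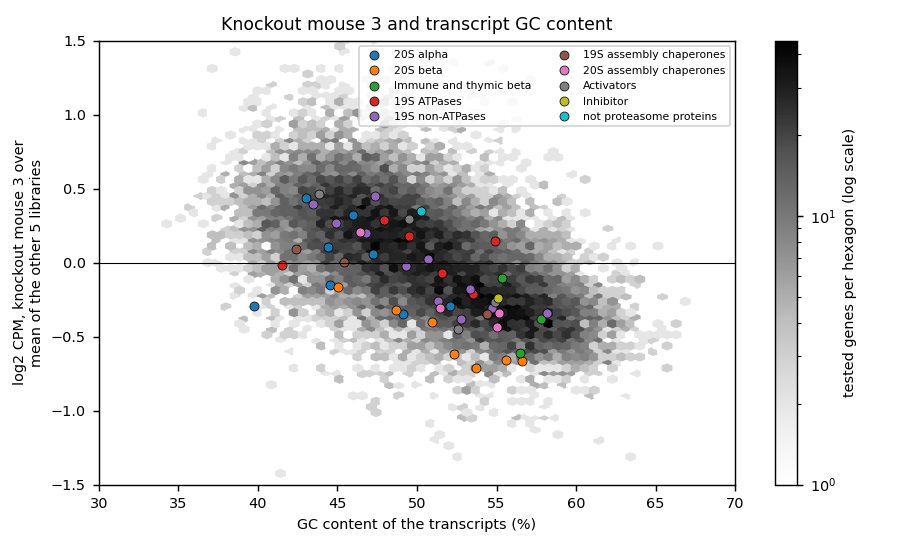
GC content of the transcripts (%) against the log2 CPM of knockout mouse 3 over the mean of the other 5 libraries; grey hexagons count all tested genes (log colour scale) and coloured points are the members by class. Psmb5 (56.6%) lies low at -0.67 and Psme4 (43.9%) lies high at 0.46. Some members lie off the trend, such as Psma2 (39.8%) at -0.29 and Psmc3 (54.9%) at 0.15. Genes outside the plotted range are not drawn.

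The immune subunits replace Psmb5, Psmb6 and Psmb7 in cells that meet interferon, and each was low in the testis. Psmb8, which replaces Psmb5, had 1.13, 1.59 and 0.963 CPM in wild type and 1.01, 0.975 and 0.744 CPM in knockout. Psmb9, which replaces Psmb6, had 1.59, 1.47 and 1.08 against 1.41, 1.24 and 1.26 CPM, and Psmb10, which replaces Psmb7, had 5.80, 6.48 and 4.85 against 7.24, 6.41 and 4.72 CPM. The genotypes overlapped for all 3.

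The edgeR log2 fold changes were -0.44 for Psmb8 (95% interval -1.11 to 0.23, adjusted p = 0.688), -0.08 for Psmb9 (-0.66 to 0.50, adjusted p = 0.943) and 0.10 for Psmb10 (adjusted p = 0.888). Leaving out knockout mouse 3 gave -0.31, -0.058 and 0.25. The intervals of Psmb8 and Psmb9 include a 1.5-fold decrease, which these values therefore do not exclude. Psmb9 overlaps Tap1 on the other strand, so reads of these genes may not be told apart. Psmb11, the thymic subunit, had 2, 7 and 9 counts in wild type and 3, 0 and 5 in knockout. Leukocyte markers, which could bring immune subunits, had log2 fold changes above 0 for 10 of 10 genes with 0 called and a median of 0.25; their summed level was 198 to 262 CPM in wild type and 231 to 347 CPM in knockout, and its part in the values was not tested.

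The ATPases of the cap, which unfold substrates, had 4 of 6 above 0 and a median log2 fold change of 0.05 (range -0.18 to 0.18). Psmc3 had 311, 293 and 364 CPM in wild type and 308, 342 and 358 CPM in knockout, Psmc4 84.4, 73.5 and 70.6 against 72.6, 65.3 and 63.3 CPM, and Psmc6 10.6, 10.04 and 9.05 against 10.3, 8.85 and 9.67 CPM. All 3 overlapped, and the edgeR log2 fold changes were 0.06, -0.18 (adjusted p = 0.670) and -0.04. With knockout mouse 3 left out they were 0.0044 for Psmc3, -0.15 for Psmc4 and -0.051 for Psmc6.

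The non-ATPases, some of which bind ubiquitin or remove it, had 5 of 11 above 0 and a median log2 fold change of -0.05 (range -0.12 to 0.19). Psmd2, a scaffold that docks ubiquitin shuttles and the highest member in wild-type TPM, had 722, 807 and 790 CPM in wild type and 796, 792 and 652 CPM in knockout. Psmd14, the deubiquitinase of the cap, had 12.9, 11.1 and 12.1 against 12.4, 11.6 and 15.8 CPM, and Psmd6, a lid subunit with the smallest p of the class, 22.2, 24.9 and 28.1 against 25.1, 26.1 and 34.5 CPM. Genotypes overlapped for all 3 and the log2 fold changes were -0.05, 0.14 and 0.19 (edgeR adjusted p = 0.710 for Psmd6); for Psmd14 and Psmd6 the highest library was knockout mouse 3. Without it the values were 0.033 for Psmd2, -0.0071 for Psmd14 and 0.026 for Psmd6.

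Assembly chaperones build the complex and then leave it. Among the 3 that build the cap, Psmd10 had 4.30, 4.54 and 4.47 CPM in wild type and 5.50, 4.76 and 5.01 CPM in knockout, without overlap, at a log2 fold change of 0.20 (95% interval -0.16 to 0.55, edgeR adjusted p = 0.728). Psmd9 had 39.5, 34.4 and 34.99 against 39.1, 38.2 and 29.2 CPM with a log2 fold change of -0.03. Among the 4 that pair alpha subunits (Psmg1 to Psmg4), Psmg3 had 12.004, 10.1 and 9.13 CPM in wild type and 8.65, 8.55 and 7.15 CPM in knockout. Each knockout library lay below each wild-type library, the log2 fold change was -0.36 (SE 0.16, 95% interval -0.70 to -0.02, unadjusted p = 0.0410, edgeR adjusted p = 0.578), and it was -0.16 once wild-type mouse 1 and knockout mouse 3 were left out. Psmg1 (29.4, 33.7 and 34.4 against 33.8, 34.1 and 26.8 CPM, -0.04) and Psmg4 (4.85, 3.72 and 4.74 against 3.88, 4.12 and 3.36 CPM, -0.23) overlapped. Without knockout mouse 3 the log2 fold changes of the chaperones were 0.20 for Psmd10, 0.087 for Psmd9, -0.28 for Psmg3, 0.056 for Psmg1 and -0.15 for Psmg4.

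The activators open the gate of the core. Psme4 had 198, 207 and 196 CPM in wild type and 215, 203 and 281 CPM in knockout. Knockout mice 1 and 2 lay near the wild-type values and mouse 3 stood above all, so the log2 fold change of 0.22 (SE 0.14, 95% interval -0.07 to 0.51, edgeR adjusted p = 0.664) was 0.06 without knockout mouse 3. In TPM Psme4 had 29.8, 39.8 and 43.4 in wild type and 43.8, 45.1 and 73.9 in knockout. These TPM did not overlap, unlike the CPM. The TPM scale also differed between libraries. The single RNA Rmrp took 33.3, 22.2 and 15.7% of all TPM in wild type and 17.5, 12.9 and 11.4% in knockout, which overlapped. The median of all genes stood 0.24 higher in the knockout on log2(TPM + 1). The part of Rmrp and of the scale in the separation of Psme4 in TPM was not tested. Markers of the spermatids that Psme4 serves overlapped in sum between the genotypes: 6 round spermatid markers summed to 737 to 790 CPM in wild type and 738 to 780 CPM in knockout, and 7 elongating ones to 7471 to 10012 and 6618 to 9416 CPM, with 0 called in either list. The median log2 fold change was 0.06 for the round markers and -0.25 for the elongating ones, of which 5 of 7 lay below 0; their part in the result was not tested.

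Psme3, the nuclear activator, had 69.7, 70.6 and 77.4 CPM in wild type and 81.5, 73.8 and 91.3 CPM in knockout, at a log2 fold change of 0.18 (edgeR adjusted p = 0.672). The interferon-induced activator subunits Psme1 and Psme2 had 14.9, 16.2 and 15.5 against 18.6, 17.8 and 13.8 CPM (0.11) and 16.2, 16.2 and 14.1 against 18.2, 13.8 and 11.5 CPM (-0.10). All 3 overlapped. Psme2b, a copy of Psme2 between which reads may be split, had 0, 6 and 3 counts in wild type and 0 in each knockout library. Psmf1, the inhibitor, had 259, 268 and 264 CPM in wild type and 272, 254 and 223 CPM in knockout, and overlapped (-0.08). Without knockout mouse 3 the log2 fold changes were 0.092 for Psme3, 0.23 for Psme1, 0.039 for Psme2 and -0.0060 for Psmf1.

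Of the 2 symbols that matched without belonging to the proteasome, Psmc3ip, a partner of meiotic recombinases, had 18.3, 12.7 and 12.6 CPM in wild type and 13.1, 11.5 and 17.3 CPM in knockout, at a log2 fold change of -0.05. Psme3ip1, which binds Psme3, had 31.1, 29.9 and 34.0 against 30.4, 31.0 and 38.2 CPM (0.07). Both overlapped between the genotypes, and without knockout mouse 3 they stood at -0.24 and -0.049.

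Specialised subunits were then set against their general counterparts within each library, as ratios of TPM with 0.1 added, so that the scaling of the library drops out. The trend on GC content in knockout mouse 3 does not drop out where the paired genes differ in GC. GC contents were 44.4% for Psma8 and 52.0% for Psma7, and 43.9% for Psme4 and 49.5% for Psme3. Its part in the ratios was not tested. Psma8 exceeded Psma7 by 1.59, 2.83 and 1.90 times in wild-type mice 1 to 3 and by 1.60, 1.77 and 2.499 times in knockout mice 1 to 3. Psma8 thus made up 67.0 ± 6.36% of the summed TPM of the pair in wild type and 65.6 ± 5.16% in knockout (SD, n = 3). The genotypes overlapped, and the log2 difference of -0.09 had an exact permutation p of 0.7 (two-sided; adjusted over 5 ratios 0.8). With 3 mice against 3 the smallest p this exact test allows is 0.1.

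Psmb8 relative to Psmb5 was 0.0106, 0.0127 and 0.0109 in wild type and 0.0112, 0.0103 and 0.0113 in knockout. Psmb9 relative to Psmb6 was 0.00571, 0.00486 and 0.00379 against 0.00620, 0.00494 and 0.00665, and Psmb10 relative to Psmb7 was 0.0720, 0.0737 and 0.0607 against 0.0778, 0.0767 and 0.0649. All 3 pairs overlapped, and the log2 differences were -0.05, 0.32 and 0.09 (exact permutation p of 0.8, 0.2 and 0.5; adjusted over 5 ratios 0.8, 0.75 and 0.8). Leaving out wild-type mouse 3 brought Psmb9 to Psmb6 from 0.32 to 0.16 and Psmb10 to Psmb7 from 0.09 to 0.00099, and with 1 TPM added in place of 0.1 the former was 0.19. Together the immune subunits made up 1.96, 2.17 and 1.91% of the summed TPM of the 6 catalytic subunits in wild type and 2.37, 2.27 and 2.28% in knockout. These shares, taken on TPM only, did not overlap, by 2.01 ± 0.138% against 2.31 ± 0.0551%. Psmb10 was the largest of the 3, with means of 8.68 TPM in wild type and 10.6 TPM in knockout. Psmb8 stood at 1.48 and 1.42 TPM and Psmb9 at 1.26 and 1.61 TPM. In CPM each of the 3 genes overlapped between the genotypes, and separation of the share in CPM was not examined. Knockout mice 1 and 2, at 2.37 and 2.27%, also lay above the highest wild-type share of 2.17%. In CPM Psmb5, Psmb6 and Psmb7, which form most of the denominator, were lowest in knockout mouse 3. In TPM, on which the share was taken, wild-type mouse 1 was lowest for each of them, at 113, 246 and 93.7 TPM. How often shares of other gene sets separate was not counted, and 14.3% of all genes tested did not overlap in CPM. The cause of the difference in shares was not tested.

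Psme4 relative to Psme3 was 1.05, 1.05 and 0.882 in wild type and 0.944, 0.854 and 0.883 in knockout. The genotypes overlapped, and the log2 difference was -0.15 (exact permutation p = 0.3, adjusted 0.75). Psme4 took 31.0 ± 1.02% of the summed activator TPM in wild type and 30.8 ± 3.62% in knockout.

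**Figure D5:**
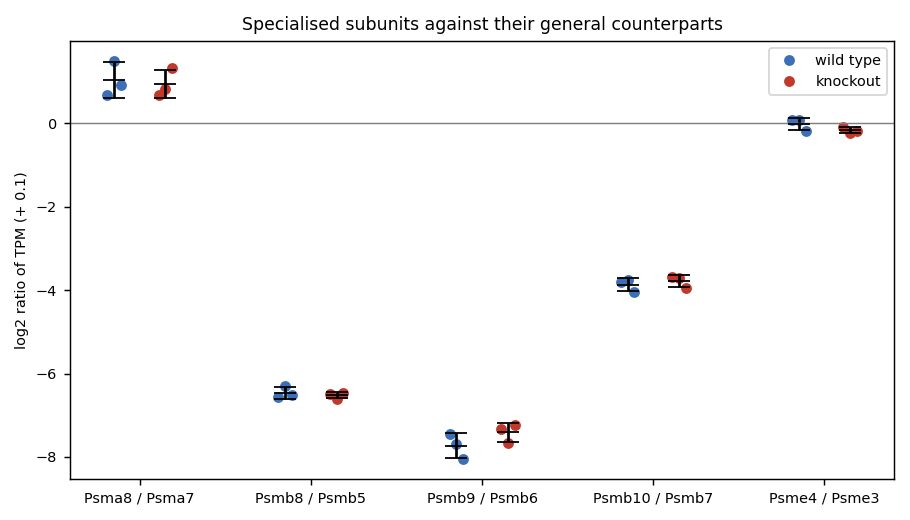
Log2 ratio of TPM (0.1 added) of each specialised subunit to its general counterpart in every mouse, wild type blue and knockout red, with mean and SD in black (n = 3 each). Psma8 lies above 0 in all 6 mice, the immune subunits lie far below it, and the genotypes overlap in each of the 5 pairs.

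The transcripts behind the genes were tested as well. Of 278 member transcripts 171 from 48 genes had enough counts, and edgeR called 0 of them, against 0.0272% of 58773 transcripts; at an unadjusted p under 0.05 there were 9, against 4.76%. The following 3 genes were chosen for description after their values were seen. For Psma1, an alpha subunit, the 960-base form held 27.8, 38.3 and 41.7% of the gene's estimated counts in wild type and 17.7, 22.7 and 21.9% in knockout, and the 1201-base form 69.3, 59.0 and 55.7% against 80.2, 74.8 and 73.7%. These shares did not overlap between the genotypes, and the 960-base form had a log2 fold change of -0.87 (edgeR adjusted p = 0.610). How often the shares of other transcripts separate was not counted, and 14.3% of all genes tested did not overlap in CPM. For Psmd1, a cap scaffold, a form annotated as a target of nonsense-mediated decay (2518 bases) held 63.2, 57.8 and 49.2% in wild type and 45.2, 42.1 and 40.6% in knockout, and the 3112-base protein-coding form 31.6, 38.5 and 46.6% against 50.5, 54.4 and 55.8% (edgeR adjusted p = 0.932 for both). Within each genotype the share of the Psmd1 decay form fell from mouse 1 to mouse 3, the order of the libraries on the first principal component. The Psma8 form of 1023 bases held 59.4, 56.9 and 50.2% in wild type and 56.4, 49.4 and 41.6% in knockout, which overlapped (adjusted p = 0.932).

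Genes that work with the proteasome were read from lists. Among 13 partners without a Psm symbol, 12 were tested (Paaf1 had no count), 0 were called and the median log2 fold change was 0.07. Ube3c, a ligase that extends ubiquitin chains on the proteasome, had 106 ± 15.7 CPM in wild type and 140 ± 30.6 CPM in knockout (0.40, edgeR adjusted p = 0.526), and Sem1, a small cap subunit, 18.4 ± 2.84 against 15.5 ± 1.74 CPM (-0.25, adjusted p = 0.658). Among 12 shuttles and regulators 0 were called (median 0.08). In that list Ngly1, which deglycosylates Nfe2l1, had 55.9 ± 3.37 against 71.0 ± 17.4 CPM (0.35, edgeR adjusted p = 0.578), and Ddi1, a testis-enriched shuttle, 46.8 ± 3.89 against 57.0 ± 10.3 CPM (0.29, adjusted p = 0.607).

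Of 7 ubiquitin and E1 genes 0 were called and 6 lay below 0 (median -0.13). Ubb, a polyubiquitin gene, had 4021 ± 629 CPM in wild type and 3443 ± 409 CPM in knockout (-0.22, edgeR adjusted p = 0.680), and Uba6, an E1 enzyme, 16.6 ± 1.16 against 19.2 ± 1.56 CPM (0.21, adjusted p = 0.663). Of 15 tested genes of antigen presentation and the interferon response 1 was called, Stat2, a transducer of interferon signals. It rose from 14.4 ± 1.23 to 45.5 ± 3.49 CPM (log2 fold change 1.66, edgeR adjusted p = 1.41e-05), without overlap, while the median of the list was -0.03. Nlrc5, which activates class I antigen presentation genes, had 10.9 ± 0.823 against 8.15 ± 0.389 CPM (-0.42, adjusted p = 0.400). The interferon-inducible proteasome genes Psmb8, Psmb9, Psmb10, Psme1 and Psme2 were not called, as given above.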

How the data were processed

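RNA from decapsulated testes (seminiferous tubes, per the labels) was sequenced in 3 wild-type and 3 Nsun7-/- mice, 1 library each, with no pooling stated. The submitters' processing notes name kallisto 0.50.1 and mm39; for the annotation and the strand setting the sources used here give nothing. The deposited gene table holds the authors' estimated counts as whole numbers, and the second deposited table holds the authors' TPM; per-sample tables, per the file headers, hold expected counts and TPM of 126126 transcripts. Of these 93.5% matched GENCODE M21 (GRCm38), used for names, overlaps, GC and transcript joins. Psmc2's gene count differed from its transcript sum; 49 of 50 members were within 1 count. RefSeq promoters are GRCm38.p6.

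Counts (23480448 to 28558865 per library) went into edgeR 4.0.16 (R 4.3.3): TMM, filterByExpr by genotype (minimum 10, total 15), robust quasi-likelihood, Benjamini-Hochberg over 21002 genes, threshold 0.05; the biological coefficient of variation was 14.9%. Transcript estimates were rounded and tested alike. The test was tested on simulated data. Ratios used exact permutation. Alternatives used limma 3.58.1 and DESeq2 1.42.0. Members, classes and lists were chosen with earlier results of these data known. Named were members called, the smallest p and the highest and lowest wild-type TPM of each class, testis, immune and catalytic members, and 2 genes of smallest p per list. Log2 fold changes are knockout over wild type, and SEs divide them by the square root of F. The labels do not say whether shared mouse numbers pair the mice, and the main test treated them as unpaired.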

Additional observations from a re-analysis of the deposited data

How the results depend on the processing

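No proteasome gene or transcript was called under any alternative run. The count of called genes, 119, was 180 without the low-count filter, 213 with DESeq2, 331 with the replicate block, 61 and 68 with limma on log2 TPM (pseudocounts 1 and 0.1), 63 after recentring those values, and 67 to 166 leaving out single mice. On TPM 44 calls were higher and 17 lower, after recentring 18 and 45, and on counts 49 and 70; the median of all genes moved by 0.24 (0.30 at 0.1). Same-numbered mice deviated with correlations of 0.18, -0.0048 and 0.20, and unlike-numbered mice with -0.24 to 0.056. The labels do not say whether shared numbers pair the mice. With the replicate block 4 members had an unadjusted edgeR p under 0.05, against 1 without it. The ratio Psme4 to Psme3 turned to 0.028 on counts; leaving out single mice gave -0.28 to 0.14 for Psma8 to Psma7 -0.11 to 0.028 for Psmb8 to Psmb5, 0.16 to 0.46 for Psmb9 to Psmb6 and 0.00099 to 0.17 for Psmb10 to Psmb7. Of 521 log2 fold changes of named members 42 turned sign, over 16 members, with 0 past the threshold and the furthest at 0.16. Leaving out single mice gave -0.31 to 0.043 for Psma8, -0.054 to 0.10 for Psmb1, -0.048 to 0.25 for Psmb10, -0.23 to 0.020 for Psmb9, -0.017 to 0.15 for Psmc3, -0.24 to 0.13 for Psmc3ip, -0.11 to 0.013 for Psmc6 and -0.0071 to 0.23 for Psmd14. It gave -0.11 to 0.033 for Psmd2, -0.11 to 0.087 for Psmd9, -0.31 to 0.039 for Psme2, -0.049 to 0.12 for Psme3ip1 and -0.12 to 0.056 for Psmg1. With wild-type mouse 1 and knockout mouse 3 both left out, Psma6 was -0.033, Psmb9 0.054, Psmc3 -0.015, Psmc6 0.0068, Psmd6 -0.048, Psmd9 0.16, Psme2 0.075 and Psme3ip1 -0.057. On log2 TPM relative to all genes, Psmc6 was 0.045, Psmd2 0.025, Psmd9 0.030, Psme2 0.090 (0.040 at 0.1), Psmg1 0.022 and Psmb9 0.040 (at 0.1). With the GC correction, chosen after seeing the data, Psmb1 was -0.015, Psmb9 0.040, Psmd9 0.054 and Psmf1 0.026. The cause was not tested for any of these. Counts limit small differences for Psmb8, Psmb9, Psmb11 and Psme2b.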
